A study of Mus musculus with 6 samples.

Results

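The highest-scored nuclear RNA contact sites of JARID2 were short, with a median length of 14 bases in each list. Nuclear sites scored 10 to 99 were shorter still, with medians of 12 bases untreated and 11 treated. Of the 195 loci of the highest-scored sites, 92 (47.2%) had no other contact site on the strand within 10 kb. Among loci joined from sites of any score, 83.9% of those scored at least 1000 were alone in this way. The share was 50.5% from 100 to below 1000 and 38.2% under 100. Of the 195 loci, 155 (79.5%) held a site both before and after retinoic acid. Of 16914 loci joined from nuclear sites of any score, 9.99% did, and so did 86.5% of the 192 among them scored at least 1000. Of those scored under 100, 79.7% were a single site, which cannot hold both lists. Members were chosen by their value: every site with an authors' score of at least 1000, on placed nuclear chromosomes and outside 2 dense windows, whose sites ran from 39979968 to 39985776 on chromosome 17 and from 5796096 to 5802614 on chromosome 19 (mm9). This gave 594 of the 28728 deposited sites, 357 in the untreated and 237 in the treated list. Sites no more than 1 kb apart on one strand were joined, which made 195 loci. Their scores are therefore a description, and no test was run on them.

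The cells were E14, a line of mouse embryonic stem cells, grown with serum and LIF and either left untreated (3 libraries) or given 2 µM retinoic acid for 24 h (3 libraries). Cells of both groups took up 500 µM 4-thiouridine for 2 h, were irradiated at 312 nm with 400 mJ/cm2 and went through immunoprecipitation with an antibody to JARID2. The libraries of a condition were deposited as 1 list, so there is 1 value per condition, no spread between libraries, and read depth is unknown. Intervals below are 95% intervals, exact binomial for shares and from order statistics for medians. They cover counting of sites or loci, which are not replicates.

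JARID2 is an accessory subunit of the Polycomb repressive complex PRC2, which methylates lysine 27 of histone H3 and keeps developmental genes silent in embryonic stem cells. It binds chromatin and can bind RNA, and retinoic acid starts the exit of these cells from pluripotency. In PAR-CLIP, 4-thiouridine built into new RNA is crosslinked to bound protein by ultraviolet light, and crosslinked positions are read as T-to-C changes, so a contact site is a short stretch of one RNA strand. Nuclear loci are given by mm9 coordinates, with positions counted from 1. The annotation and sequences at hand belong to a later build, so no gene, exon or sequence is given for a locus.

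The members were few but held most of the score. They made up 1.57% (1.41 to 1.74) of the 22710 untreated sites in placed nuclear sequence outside the windows, and 85.2% of the summed score there. In the treated list they made up 4.85% (4.27 to 5.49) of 4884 such sites and 92.8% of the score. The 10 loci with the highest summed score alone carried 39.6% of it untreated and 52.4% treated. The remaining sites at or above the minimum, 151 untreated and 96 treated, were mitochondrial (39 and 25), in the chromosome 17 window (99 and 69), in the chromosome 19 window (12 and 2) or on an unplaced contig (1 and 0).

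Member scores ran from 1005 to 480704 untreated, with a median of 3846 (3090 to 4497), and from 1014 to 448416 treated, with a median of 4749 (3873 to 6531). Nothing marked the minimum as a natural boundary: 19 untreated sites scored from 900 to below 1000 and 23 from 1000 to below 1100, against 9 and 9 treated. Just inside it lay untreated sites scored 1005, 1006 and 1010 and treated sites scored 1014, 1025 and 1030. Just outside lay untreated sites scored 982, 977 and 975 and treated sites scored 984, 983 and 980.

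Loci lay on 20 chromosomes, the autosomes and X, with 24 on chromosome 11, 18 on chromosome 9, 15 on chromosome 1, 13 on X and 3 on chromosome 15. The plus strand held 111 and the minus strand 84. Of the 195 loci, 56 consisted of a single member site and 69 of 2, and in 53 loci these were 1 untreated and 1 treated site. Another 66 loci held 3 to 9 members and 4 held 10 or more. A locus spanned 32 bases in the median (25 to 41), from 6 to 1612, and 119 loci were shorter than 50 bases. Among the 70 loci with at least 3 members the median span was 183 bases (124 to 234). Neighbouring members of one list in a locus were separated by a median of 28.5 bases (24 to 39).

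Member sites had the same median length in both lists, 14 bases (13 to 15 in each). The middle 50% ran from 10 to 23 bases untreated and from 10 to 20 treated. Nuclear sites scored 10 to 99 had medians of 12 (12 to 12) and 11 (11 to 12) bases. Long sites were more frequent among members: 14.3% (10.8 to 18.4) of untreated and 9.70% (6.25 to 14.2) of treated members had 30 bases or more, against 5.07% (4.77 to 5.39) and 3.53% (2.97 to 4.15) of sites scored 10 to 99. The program that called the sites is named in no label or file, and its part in the lengths was not tested. Within the members, score and length were nearly unrelated (Spearman rho 0.09 over 357 untreated and -0.01 over 237 treated sites, which share their list and in part their locus).

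**Figure D1:**
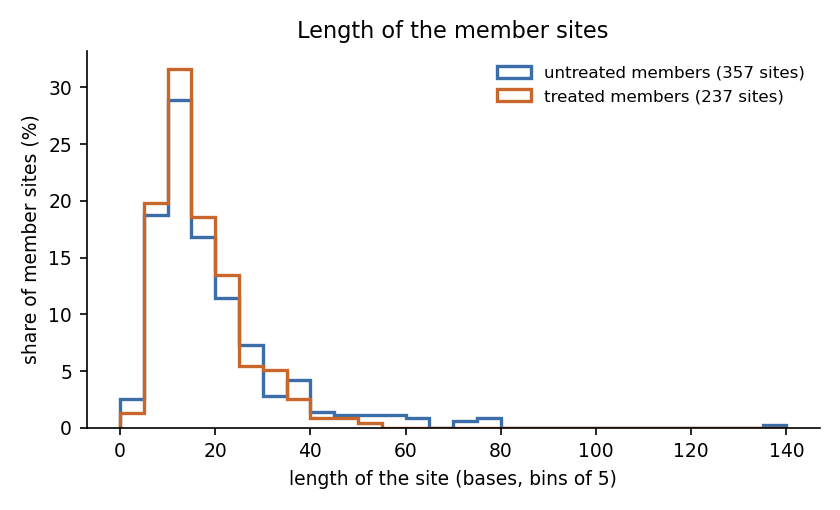
Length of the member sites in bases (x axis, bins of 5) as a share of the members of each list in percent (y axis), for 357 untreated and 237 treated sites. Both lists have their highest bar at 10 to 14 bases, and the untreated list alone reaches beyond 52 bases, up to 137.

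The longest untreated member was also the highest-scored untreated member, 137 bases at chr13:44964954-44965090 on the minus strand. Next came 79 bases at chr12:100883479-100883557 on the plus strand, with a score of 5025. The longest treated members had 52 bases at chr9:123371153-123371204 (plus strand, score 17253) and 49 bases at chrX:21257713-21257761 (minus strand, score 1454). The shortest untreated members had 2 bases, at chr6:3150870-3150871 (plus strand, score 2534) and chrX:73374423-73374424 (minus strand, score 20785). Treated members of 3 bases lay at chr9:40611741-40611743 (score 1395) and chrX:23585658-23585660 (score 16402), both on the plus strand. A high score thus occurred at sites of very different length.

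High-scored loci were isolated more often than others. For this comparison all nuclear sites of any score outside the windows were joined within 1 kb, and the resulting 16914 loci were classed by their highest score. No other site lay within 10 kb on the strand for 83.9% (77.9 to 88.8) of 192 loci with a highest score of at least 1000. The share was 50.5% (47.0 to 53.9) of 832 loci with 100 to below 1000 and 38.2% (37.4 to 38.9) of 15890 loci under 100. With 100 kb in place of 10 kb the shares were 60.9%, 30.9% and 14.6%. In the untreated list alone the shares within 10 kb were 83.8%, 49.9% and 38.5%. In the treated list alone, which has fewer sites, they were 93.2% (87.5 to 96.8), 71.9% (67.1 to 76.4) and 69.7% (68.1 to 71.2), and the intervals of the lower 2 classes overlap. The loci of at least 1000 were also richer in sites inside, with a median of 4 (3 to 5) against 2 and 1. A locus with more sites has more chances of a high one, and the part of this in the order was not tested.

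**Figure D2:**
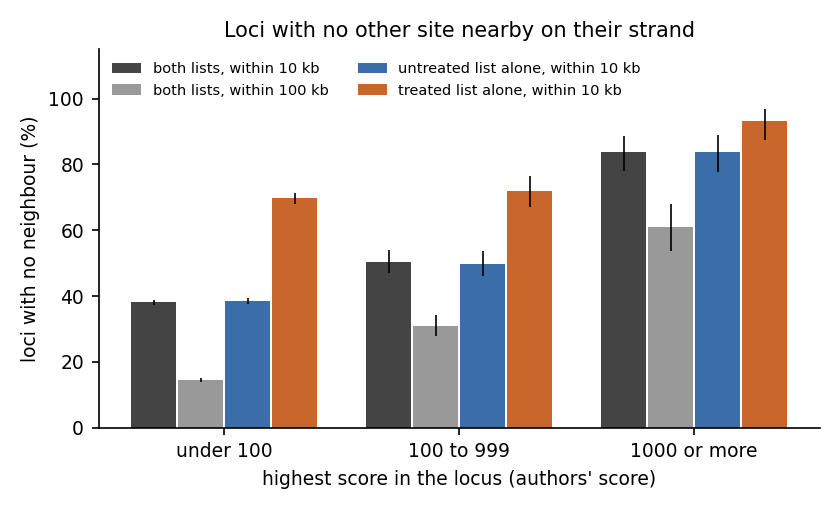
Share of loci, in percent (y axis), with no other site on their strand within 10 or 100 kb, by the highest authors' score in the locus (x axis); bars for both lists together and each list alone, with exact binomial 95% intervals as error lines. Each of the 4 kinds of bar is highest for loci scored 1000 or more, 83.9% within 10 kb for both lists together.

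When the span of a locus was drawn around the members alone, weaker sites close by counted as neighbours, and 92 of 195 loci (47.2%, 40.0 to 54.4) stood alone within 10 kb. Spans of this kind were not drawn for lower score classes, so this share has no direct comparison. The other 103 member loci had a median of 2 other sites there (2 to 3), and up to 49. Only 10 loci had another member locus within 10 kb on their strand. The 92 lone loci had a median highest score of 8192 (4654 to 11658), and the others 4315 (2990 to 6734), and these intervals overlap. A site of each list was found in 77.2% (67.2 to 85.3) of the lone and 81.6% (72.7 to 88.5) of the other loci, with intervals that overlap. No site of the opposite strand lay inside the span of any of the 195 loci (0%, 0 to 1.87). Among loci joined from all sites, an opposite-strand site lay inside 1 of 192 (0.521%, 0.0132 to 2.87) with a highest score of at least 1000. It lay inside 6 of 832 (0.721%, 0.265 to 1.56) with 100 to below 1000 and inside 0.0566% of those under 100. Median spans of these classes were 117.5, 21 and 13 bases, and the part of span in these shares was not tested.

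At most loci both lists had a site. Of the 195 loci, 155 (79.5%, 73.1 to 84.9) held a site of each list within their span, and 119 (61.0%, 53.8 to 67.9) held a member of each. Over all 16914 nuclear loci joined from sites of any score, 9.99% held a site of each list. By highest score the share was 7.30% under 100, 43.6% from 100 to below 1000 and 86.5% of the 192 at 1000 or more. Loci of a single site, which cannot hold both lists, made up 79.7%, 39.9% and 9.38% of these classes. The part of this in the shares was not tested. Of the 195 loci, another 63 had members of the untreated list alone, of which 32 still held a weaker treated site. A further 13 had members of the treated list alone, of which 4 held a weaker untreated site. By locus, presence in both lists was more frequent at higher scores. It was 26 of 40 loci scored below 2000, 67 of 88 from there to below 10000 and 62 of 67 at 10000 or more. Intervals of neighbouring classes overlapped (48.3 to 79.4%, 65.9 to 84.6% and 83.4 to 97.5%). A locus with more sites has more chances of holding both lists, and the part of this was not tested. By site, 62.7% (57.5 to 67.8) of untreated members shared at least 1 base with a treated site, and 78.5% (72.7 to 83.5) of treated members shared 1 with an untreated site. The same overlap was not counted over all sites of the lists, so whether it is particular to the members is not known. The lists also differ in sites to overlap, 4884 treated and 22710 untreated nuclear sites outside the windows. Over the same 3 score classes the member shares were 57.1%, 56.4% and 81.6% for untreated and 81.3%, 77.0% and 79.1% for treated members, so the treated share did not follow the score.

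Where members of both lists overlapped, their ends were seldom identical. Of 168 untreated members that overlapped a treated member, 11 had the same first and last base, and 65 (38.7%, 31.3 to 46.5) had both ends within 3 bases. The untreated site was the longer in 81 pairs, the treated one in 67, and 20 pairs had one length. The treated score was 0.77 times the untreated one in the median of these pairs (0.67 to 0.86).

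The order of the loci was partly the same in both lists. Of the 10 loci with the highest site score in each list, 6 were in common, and of the highest 50, 34 were. Over the 119 loci with a member of each list, Spearman's rho of the highest scores was 0.70. These points share their 2 lists and were chosen by the scores compared, so the value is descriptive.

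**Figure D3:**
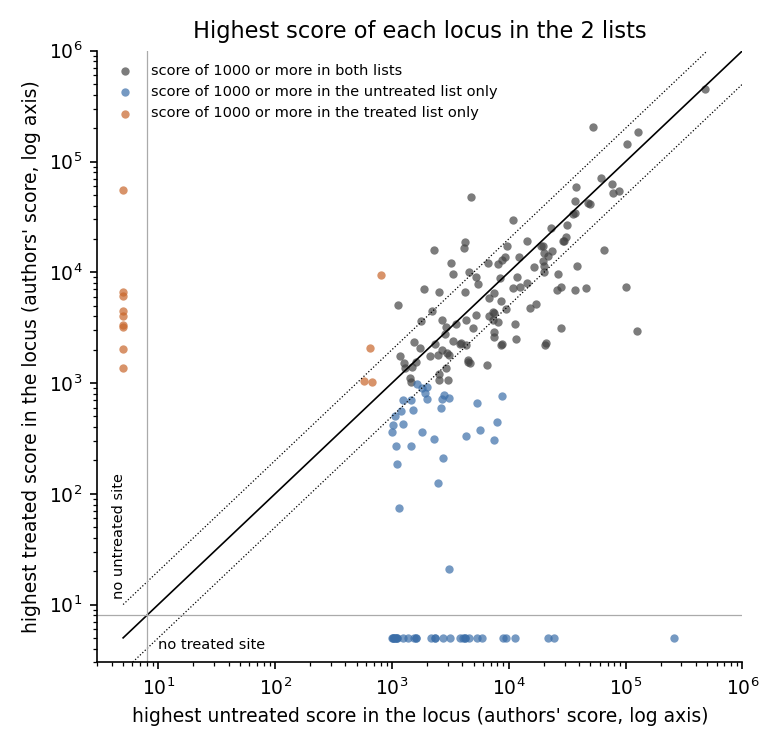
Highest authors' score of each of the 195 loci in the untreated (x axis) and treated list (y axis), both log axes; the solid line marks equal scores, dotted lines a 2-fold difference, and loci with no site of a list are set in the strips at the edges. Most loci lie below the line of equal scores, and 31 loci have no treated and 9 no untreated site.

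The member with the highest score in each list lay in chr13:44964954-44965284 on the minus strand, a locus of 331 bases. Its highest score was 480704 untreated and 448416 treated, a treated over untreated ratio of 0.93, and that site held nearly the whole summed score of the locus, 486883 and 450326. The treated site was much shorter, 38 bases within the 137 untreated ones. At chr11:108873122-108873339 (minus strand) the highest scores were 128706 and 183756, a ratio of 1.43, on a site of the same 13 bases in both lists. The nearest other site on its strand was 1233696 bases away. These loci were near the top in both conditions.

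Other loci in the top 10 of both lists had similar levels. At chr9:110183776-110183838 (plus strand) the highest scores were 87366 and 54365, at chr14:20110702-20111146 (plus strand) 78003 and 51569, and at chr16:57391290-57391754 (minus strand) 76185 and 62057. Their ratios were 0.62, 0.66 and 0.81, and the summed scores of the whole lists, which include these loci, were in a ratio of 0.71. At chr18:85867349-85867680 (minus strand), in the top 10 of the treated list, the values were 37734 and 58823, a ratio of 1.56. At chr1:195459078-195459136 (plus strand), in the top 10 of the untreated list, they were 65429 and 15893, a ratio of 0.24.

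In some loci the highest site was not the same in both lists. The highest untreated and the highest treated site overlapped in 114 of the 155 loci with both lists, and in 35 of 61 (57.4%, 44.1 to 70.0) with at least 2 sites of each. In the other 41 loci they were a median of 57 bases apart (17 to 79). At chr1:56838997-56839230 (minus strand) the highest untreated site, 72 bases long with a score of 102167, overlapped a treated site scored 58094. The highest treated site lay 57 bases away from it, at chr1:56839126-56839133, with a score of 143700, and no untreated site overlapped it. The summed score of the locus was 124705 untreated and 275949 treated, a ratio of 2.21, while its ratio of highest scores was 1.41.

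The locus with the most members, 17 untreated and 18 treated, lay at chr6:3150785-3151645 on the plus strand, 861 bases with no other site on its strand for 354878 bases. Its highest untreated site, chr6:3150924-3150950 with 61989, overlapped a treated site of 18534. Its highest treated site, chr6:3151635-3151645 with 71006, overlapped an untreated site of 55694. The sites at chr6:3151336-3151361 (34149) and chr6:3151504-3151515 (28695) were matched by treated sites of 28778 and 30357. Summed over the locus, the scores were 296022 and 262676, a ratio of 0.89. Matched sites within it had ratios on both sides of that value, such as 0.30 at the highest untreated site, 1.06 at chr6:3151504-3151515 and 1.27 at the highest treated site.

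**Figure D4:**
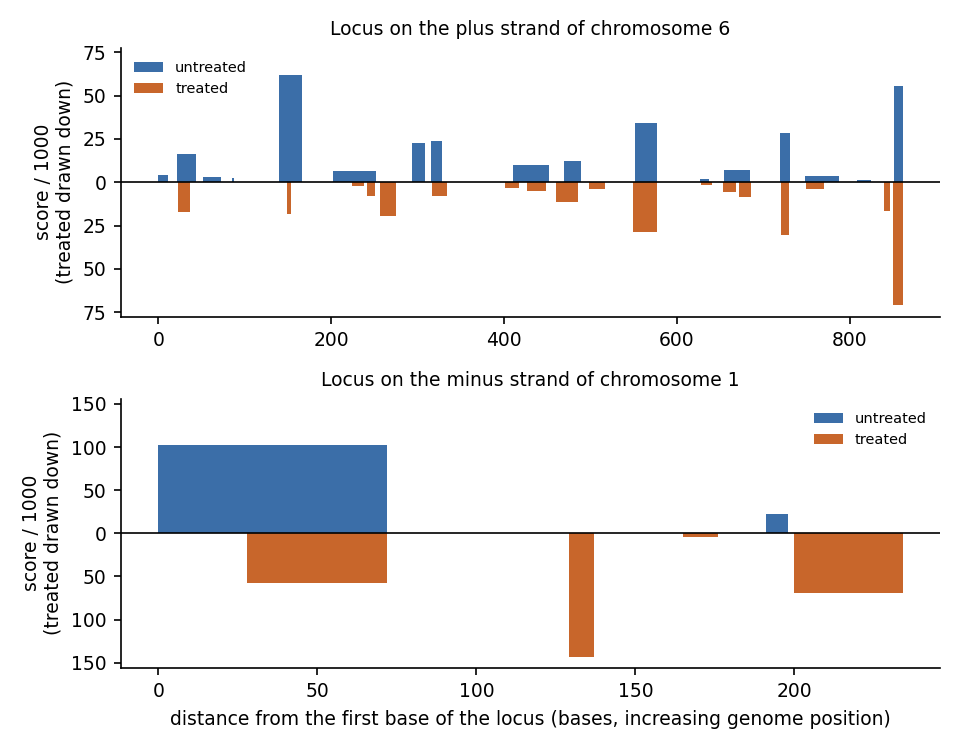
Member sites of 2 loci: distance from the first base of the locus in bases (x axis) and authors' score divided by 1000 (y axis), untreated sites drawn upward and treated sites downward, each bar as wide as its site. The chromosome 6 locus has 17 and 18 sites spread over 861 bases, and in the chromosome 1 locus the highest treated site, 143700, has no untreated counterpart.

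The loci with the next most members were shorter, and their highest sites of the 2 lists overlapped. At chr9:123370940-123371256 (plus strand), 7 members of each list reached 30581 untreated and 20639 treated, with sums of 116361 and 89604. At chr3:5860348-5860727 (plus strand), 7 and 5 members reached 23347 and 15625, with sums of 66951 and 41164. Neither had another site on its strand within 50 kb, the nearest being 58210 and 109194 bases away.

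The highest treated score was below the highest untreated score at 113 of the 155 loci with both lists (72.9%, 65.2 to 79.7), with a median ratio of 0.64 (0.56 to 0.73). The whole lists differed in the same direction, with summed scores in a ratio of 0.71, and whether that reflects depth was not tested. Scores were at least 2-fold lower in the treated list at 60 loci (38.7%) and at least 2-fold higher at 16 (10.3%). Over all 1689 nuclear loci with a site of each list, joined from sites of any score, 23.8% were at least 2-fold lower and 12.9% at least 2-fold higher, with a median ratio of 0.87. Of those 1689, the 166 with a highest score of at least 1000 had 39.8% and 12.7%. The members were picked by these scores, so nothing is read from the gap. With scores scaled to equal sums over the nuclear sites outside the windows, 38 member loci were at least 2-fold lower and 31 higher (13.0% and 27.2% over all 1689), and the median ratio was 0.94 (0.82 to 1.07).

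The ratio followed the list that had chosen the locus, as the rule requires. Loci with a member of each list had a median ratio of 0.75 (0.65 to 0.88), and 75 of 119 lay within 2-fold. The 32 loci with members in the untreated list alone and a weaker treated site had a median of 0.24 (0.12 to 0.38), and the 4 with the reverse ran from 1.51 to 11.9. In the 119, 81 were lower in the treated list, 30 of them at least 2-fold, and 14 were at least 2-fold higher.

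**Figure D5:**
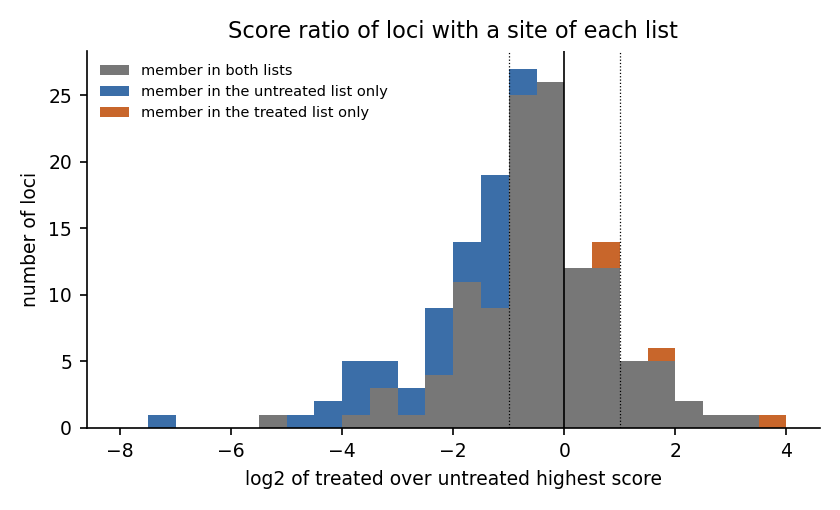
Log2 of the treated over the untreated highest score (x axis) for the 155 loci with a site of each list, as number of loci (y axis), stacked by the list or lists in which the locus had a member; the solid line marks equal scores and dotted lines 2-fold. More loci lie left of the solid line than right of it, 113 of 155.

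The lowest ratios among loci with a member of each list included some of the highest untreated scores. Both scores are at least 1000 at such loci, so a very low ratio needs a high untreated score by construction. At chr9:17792232-17792258 (plus strand), a single site in each list, the score was 126031 untreated and 2958 treated, a ratio of 0.023. At chr4:121870910-121870941 (minus strand) it was 100722 and 7299, a ratio of 0.072. The next were chr1:197066937-197066958 (minus strand, 20259 and 2194), chrX:73374278-73374532 (minus strand, 20785 and 2297) and chrX:4545415-4545453 (plus strand, 27879 and 3148), each with a ratio of 0.11. All but the chromosome X locus on the minus strand stood alone within 10 kb.

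The highest ratios were found at loci of lower untreated score, which the measure favours because the untreated score divides it. At chr15:47371595-47371657 (plus strand) the highest score was 4734 untreated and 48088 treated, a ratio of 10.2, and the sum of the locus gave 5.86. At chr19:51217041-51217237 (minus strand) the scores were 2310 and 15766, a ratio of 6.83. They were followed by chr9:113665497-113665980 (plus strand, 1128 and 5022), chr5:115302116-115302141 (minus strand, 4252 and 18615) and chrX:23585639-23585660 (plus strand, 4151 and 16402), with ratios of 4.45, 4.38 and 3.95. The second-highest treated member score belonged to a locus close behind, chr1:133470438-133470590 (plus strand), with 52174 and 205185, a ratio of 3.93.

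Most member loci without any site of the other list had a modest score. So did most loci with members of one list alone and a weaker site of the other. The 31 loci with an untreated member and no treated site had a median highest score of 2328 (1362 to 4235) and a median span of 19 bases, and 9 of them had a treated site within 1 kb. The highest of them was chr16:17222417-17222591 (plus strand), where 3 untreated members reached 260828, the second-highest untreated member score, and no treated site was listed in the span. The 2 other sites within 10 kb on its strand, the nearer 11 bases from the span, were also untreated. It was followed by chr6:128789129-128789148 (plus strand, 24416) and chr16:35981689-35981706 (plus strand, 21842), each a single site. Beside the latter, on the minus strand, the locus chr16:35981801-35981907 had members of both lists, reaching 11658 untreated and 9057 treated.

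The 9 loci with a treated member and no untreated site had a median highest score of 4039 (2029 to 6580), and 5 of them had an untreated site within 1 kb. The highest was chr5:137408821-137408845 (plus strand), with 2 treated sites scored 42940 and 55220 and another site 907 bases away. At chr6:87947517-87947523 (minus strand) the treated score was 6580, with another site 58 bases away. At chr1:104524861-104524875 (minus strand) it was 6077, and no other site of either list lay within 2 Mb on that strand. The authors' threshold for listing a site is stated in no label or file, so no fold is given for these 40 loci.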

How the data were processed

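JARID2 PAR-CLIP was done on 6 libraries of E14 cells. The authors deposited 1 list of contact sites per condition, each named for 3 libraries, with whole-number values in the fifth column. Their unit is the authors' score, and what it counts, the program that called sites, its threshold and the treatment of reads that fit several places are not given in the sources at hand. Bowtie and mm9 are named per the submitters' processing notes, with no role or version. A site that shares reads with a near-identical copy elsewhere is therefore uncertain in place and score.

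Sites were filtered by score, chromosome and window, then joined on one strand where at most 1 kb apart. The score of a locus in a list is that of its highest site within the span, and ratios are treated over untreated. Loci without a site of one list have no ratio. No test was run, because members were chosen by their scores and each condition has 1 list. Depth per library is unknown. The number of loci, ratios and isolation were tested on simulated data. Joining of the members, and overlap for a part of them, were recounted on the deposited lists. Members and lists were chosen with earlier results of these data known.

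Loci were named by a rule: the 10 with the highest score in each list, the 5 lowest and 5 highest ratios among loci with a member of each list, the 3 highest-scored per list without a site of the other, the 3 with the most members, and the 2 longest and 2 shortest members per list. Scripts ran in Python 3.11.15. They used pandas 2.3.3 for tables, numpy 2.4.6 for arrays, scipy 1.17.1 for exact intervals, and matplotlib 3.10.9 for plots.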

Additional observations from a re-analysis of the deposited data

How the results depend on the processing

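No paired analysis was possible because the lists hold no value per library, and for the same reason leaving out a library could not be run. Over 66 alternative values, 51 stayed within 1.5 times a count or within the 95% interval of a median or share, and 15 moved. The median ratio stayed below 1 under every alternative tried, but with scores scaled to equal sums its interval, 0.82 to 1.07, included 1. Requiring 50% of both sites to overlap gave 42.0% of untreated and 51.5% of treated members, and a distance of up to 100 bases gave 89.1% and 95.8%. With a score minimum of 500 the untreated share was 56.4% and 25 loci were 2-fold higher, and with 2000, which leaves fewer loci, 39 were 2-fold lower. Loci with a member in both lists gave a median ratio of 0.75 and 30 loci 2-fold lower. The share of lone loci was 35.4% with 100 kb, and 83.9% with spans of all sites. Chosen after the data were seen were that span, leaving out the locus with the most members, and the scalings: equal summed scores of the nuclear sites outside the windows gave a median ratio of 0.94, 38 loci 2-fold lower and 31 higher, and a median of 1 over all nuclear loci gave 0.74. Equal summed scores rest mostly on the members' own scores. Leaving out the locus with the most members moved none of its 7 values past these limits. The cause of these moves was not tested beyond what each setting changes by its construction.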

Other observations

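Other single loci, chosen after their values were seen, are given as values. On the minus strand of chromosome 4, the nearest site of either list to the locus at chr4:121870910-121870941 was another member locus of similar length, chr4:122132544-122132573, 261602 bases away. Its scores were 36960 untreated and 6907 treated, a ratio of 0.19. Whether these loci share reads, which would make them 1 observation, was not tested. In the chromosome X locus at chrX:73374278-73374532, the untreated sites chrX:73374423-73374424 and chrX:73374434-73374445 had the same score, 20785. It was the one locus with members of equal score in a list. At chr10:42576621-42576631 (minus strand), a site with 800 untreated and 9541 treated had the highest ratio of all 155 loci, 11.9, and is no member of the untreated list. At chr5:134947537-134947544 (plus strand), 3091 untreated against 21 treated gave the lowest, 0.0068.

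Members alone under their group name, the part of the authors' site name before the point, made up 30.8% (110 of 357) of untreated and 43.5% (103 of 237) of treated members. The remaining members shared that name with at least 1 other listed site.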
